A study of Homo sapiens with 24 samples.

Results

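Glycolysis turns glucose into pyruvate in the cytosol, and lactate dehydrogenase then reduces pyruvate to lactate. The genes described are 10 that encode enzymes of this route: the hexokinases HK1 and HK2, the isomerase GPI, the phosphofructokinases PFKP and PFKL, the aldolase ALDOA, and GAPDH, PGK1, ENO1, and LDHA. They were taken by symbol from the count table, without a cut on their values. The list was, however, chosen with earlier results of these data known. All 10 were found among 26645 gene entries, and all 10 were among the 14741 genes that passed edgeR's filter on low counts.

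RNA came from MDA-MB-468 (MB468), an established human line of breast cancer cells that stops proliferating once Hcy, the precursor of Met, takes the place of Met, and from MDA-MB-468res-R8 (MB468res-R8). MB468res-R8 is 1 clone, obtained by prolonged culture of MB468 in Hcy medium, that proliferates without Met, so what is particular to this clone and what goes with Met independence cannot be told apart. The 0 h libraries of each line are from Met+ medium (100 µM Met). The others followed 0.5, 2, and 12 h of culture in Met-Hcy+ medium, in which 370 µM DL-homocysteine replaced Met, with 3 libraries in each of 8 groups and the other supplements (dialyzed serum, vitamin B12, glutamine, and cysteine) named for all of them. There was no 12 h library from Met+ medium, so Met stress and time after the media switch cannot be told apart. The labels do not say whether the libraries of a group came from separate cultures. The p-values set each difference against the spread between libraries within groups, which may be technical. That spread was estimated for each gene over all 24 libraries, not only those compared.

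Library totals were between 11745553 and 36496655 counts with a median of 20503827, and 0.201% to 0.303% of counts were on spike-in RNAs. Each of the 10 genes had at least 1898 counts in every library. The epithelial marker EPCAM was between 286 and 437 CPM (counts per 1000000 counts of the TMM-scaled library) and the basal marker KRT5 between 1539.8 and 2783, and the luminal keratins KRT8 and KRT18 had medians of 1926 and 832 CPM. Of the hormone receptors, ESR1 had a median of 13.7 CPM and PGR of 0. The leukocyte gene PTPRC had a median of 0.0462 CPM, although CD14 had a median of 60.5 CPM and COL1A1 of 35.8. A sum was also taken over RNAs without a poly(A) tail (RN7SK, RN7SL1, RMRP, and RPPH1, as far as counted), per 1000000 gene counts without TMM scaling. It was 1579.6 in replicate 2 of MB468 at 2 h, against 6.37 to 28.6 in the other libraries. These are bulk values, relative to each library's total. Fewer cells expressing a gene and less of its RNA per cell cannot be told apart in them.

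Hexokinase traps glucose as glucose 6-phosphate, phosphofructokinase commits it to glycolysis, and ALDOA splits the sugar into trioses. GAPDH, PGK1, and ENO1 act on the trioses, with ATP made at the PGK1 step, and LDHA restores the NAD+ that GAPDH uses. Many of these genes are textbook targets of hypoxia-inducible factor (HIF) and of MYC. HIF binds short cores, ACGTG among them, and MYC binds the E-box CACGTG.

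Promoters are shown for LDHA and PFKP, the pair of genes that rose most in MB468res-R8 at 12 h, and for PGK1, which holds the core outside an E-box. RefSeq's table on GRCh38.p14 had a promoter window for all 10 genes, from 250 bases before to 50 after the listed start. Only the first listed window of each gene was used, so any further windows of the same gene were not searched. Printed are the 250 bases before the start, on the plus strand and from 5′ to 3′, with every ACGTG in capitals (CACGT where it lies on the other strand). The windows are chr11:18394313-18394562 for LDHA, chrX:78103998-78104247 for PGK1, and chr10:3067720-3067969 for PFKP.
LDHA: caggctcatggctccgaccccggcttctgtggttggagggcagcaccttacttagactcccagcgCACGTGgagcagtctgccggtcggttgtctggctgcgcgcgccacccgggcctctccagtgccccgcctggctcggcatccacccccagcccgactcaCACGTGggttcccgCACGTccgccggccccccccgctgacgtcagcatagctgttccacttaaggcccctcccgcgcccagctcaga
PGK1: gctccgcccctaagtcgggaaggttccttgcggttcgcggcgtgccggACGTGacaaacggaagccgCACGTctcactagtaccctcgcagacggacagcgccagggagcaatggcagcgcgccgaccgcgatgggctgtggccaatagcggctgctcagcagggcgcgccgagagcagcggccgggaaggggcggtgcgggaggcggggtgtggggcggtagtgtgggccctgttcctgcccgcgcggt
PFKP: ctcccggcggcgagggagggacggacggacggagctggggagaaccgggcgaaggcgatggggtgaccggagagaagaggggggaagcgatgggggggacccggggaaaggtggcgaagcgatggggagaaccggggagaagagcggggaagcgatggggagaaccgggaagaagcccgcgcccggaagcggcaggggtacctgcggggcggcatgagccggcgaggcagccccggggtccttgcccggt

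LDHA held 5 matches to ACGTG on either strand, 4 of which are the pair of E-boxes, since CACGTG reads as the core on both strands. The E-boxes start 185 and 87 bases before the RefSeq start (positions -185 and -87). PGK1 held 3 matches, with the third in the 50 bases after the start, and GAPDH held 1 E-box. HK2 held 2 matches and GPI and ALDOA 1 each. PFKP, PFKL, HK1, and ENO1 held none in this window. The core was in the windows of 6 of the 10 genes and of 21.6% of all 27305 promoters, and CACGTG was in 2 of 10 and 7.43%. In MB468res-R8 the 12 h log2 fold change was 0.72 for LDHA (5 matches) and 0.79 for PFKP (no match). The line differences at 12 h ran from 0.19 to 1.36 in the 6 genes with the core and from 0.58 to 1.48 in the 4 without. Whether the core bears on these responses was not tested. The start in use in these cells was not measured.

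The summed RNA of the 10 genes took a larger share of the library in MB468res-R8 than in MB468, and this gap widened at 12 h. In MB468 the share of gene counts on these genes was 1.05%, 1.04%, and 1.0% at 0 h and 0.745%, 0.752%, and 0.766% at 12 h. In MB468res-R8 it was 1.48%, 1.42%, and 1.46% at 0 h and 1.68%, 1.63%, and 1.62% at 12 h. The 12 h libraries lay below the 0 h libraries in MB468 and above them in MB468res-R8, with no overlap between groups. At 0.5 and 2 h each line stayed near its 0 h share, at 0.989% to 1.05% in MB468 and 1.40% to 1.48% in MB468res-R8. GAPDH and ENO1 made up most of the sum, as the 4th and 7th most abundant of the 14741 tested genes by mean CPM. HK2 was the least abundant of the 10 genes, at rank 1369. The sum is a description and was not tested.

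**Figure D1:**
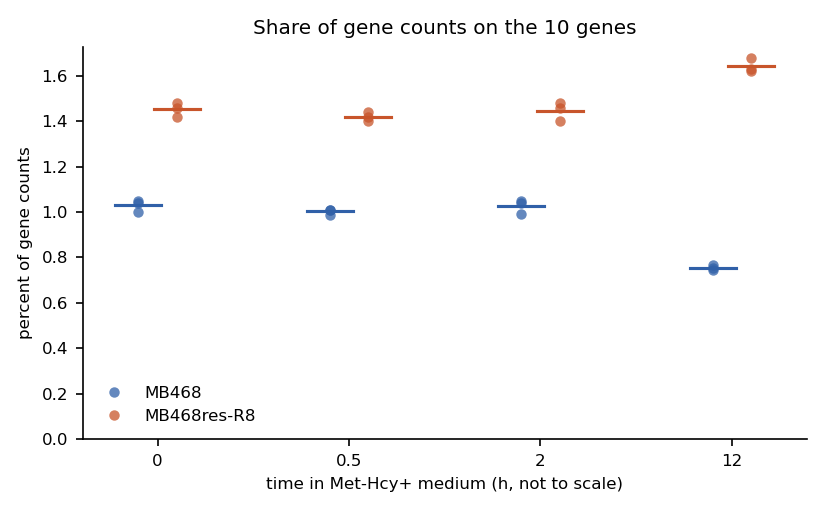
Share of all gene counts (percent, y axis) on the 10 glycolysis enzyme genes against time in Met-Hcy+ medium (hours, x axis, not to scale), with a point for each library, a bar for the group mean, and colour for the cell line. MB468 drops from a mean of 1.03% at 0 h to 0.754% at 12 h, whereas MB468res-R8 goes from 1.46% to 1.64%.

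Before Met was withdrawn, 8 of the 10 genes were already higher in MB468res-R8. These were ENO1, LDHA, PFKP, GAPDH, HK1, ALDOA, HK2, and PGK1, in order of size. GPI was lower, and PFKL, the liver-type phosphofructokinase, did not pass the test (log2 difference 0.03, adjusted p = 0.615 with edgeR's quasi-likelihood test). A gene is called higher or lower at a Benjamini-Hochberg adjusted p under 0.05 over all tested genes. Of all tested genes, 53.5% were called in this comparison and 26.4% were called higher. Among the 1370 tested genes at least as abundant as HK2, by edgeR's average log2 CPM, 70.7% were called and 34.7% were called higher. The median difference was 0.33 on the log2 scale for the 10 genes, and -0.00 both for these 1370 genes and for all tested genes.

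ENO1 (alpha-enolase, chromosome 1, 8861000 to 8879190, minus strand), which makes phosphoenolpyruvate, had 2361, 2366, and 2295 CPM in MB468 and 4452, 4292, and 4371 in MB468res-R8. Every MB468res-R8 library was thus far above every MB468 library. The difference was 0.90 (SE 0.0346, 1.87-fold, adjusted p = 4.52e-24 with edgeR). LDHA (chromosome 11, 18394560 to 18408425) had 1052, 1068, and 981 CPM in MB468 and 1753, 1567, and 1734 in MB468res-R8, a difference of 0.70 (SE 0.0532, adjusted p = 2.75e-12 with edgeR). PFKP, the platelet-type phosphofructokinase, had 211, 201, and 182 CPM against 298, 300.4, and 279, which is 1.48-fold more in MB468res-R8 with no overlap. At the other end, PGK1 had 384, 396, and 369.7 CPM in MB468 and 440.0, 393, and 423 in MB468res-R8, so the groups overlapped. Its difference of 0.13 (adjusted p = 0.0157 with edgeR) was not called without replicate 3 of MB468 (adjusted p = 0.130) or without replicate 1 of MB468res-R8 (0.198).

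GPI (glucose-6-phosphate isomerase, chromosome 19, 34359480 to 34402413) went the other way, with 1043, 1036, and 962 CPM in MB468 and 922, 914, and 895 in MB468res-R8. All 3 MB468 libraries were higher, and the difference was -0.16 (SE 0.0399, adjusted p = 0.00110 with edgeR). The 0 h differences depended on the scaling. With the spike-in totals as library sizes, the median of all tested genes moved to -0.31, and the genes called were ENO1 (0.59) and LDHA (0.40), both higher, and GPI (-0.47). HK2 (-0.10), ALDOA (-0.05), PGK1 (-0.18), and PFKL (-0.28) changed sign without being called. Relative to the median of all tested genes, 9 of the 10 genes lay above it under both scalings. Rescaling shifts all genes of a comparison nearly alike, so this count could hardly change and is not separate support.

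After 12 h in Met-Hcy+ medium, all 10 genes had fallen in MB468, and in none did the 12 h libraries overlap the 0 h libraries. The share of all tested genes without overlap was not counted, here or in the comparisons below, so non-overlap only describes these genes. The falls ran from -0.25 for HK2 to -0.79 for PFKL on the log2 scale, with a median of -0.63. The median of all tested genes was 0.01. Of all tested genes, 70.8% were called and 34.7% were called lower. Among the 1370 tested genes at least as abundant as HK2 by edgeR's average log2 CPM, the share called lower was 62.3%. The median of those 1370 genes was -0.23. All 10 genes remained called lower with the spike-ins as library sizes (median -0.86, with all tested genes at -0.23).

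PFKL (chromosome 21, 44300051 to 44327376) fell most, from 268, 266, and 265 CPM to 151, 154, and 157. The libraries of each group lay close together and the groups far apart, at a log2 fold change of -0.79 (SE 0.0448, adjusted p = 5.00e-19 with edgeR). PGK1 (phosphoglycerate kinase, chromosome X, 77910739 to 78129295) fell from 384, 396, and 369.7 CPM to 223, 237, and 225, or to 0.595-fold of its 0 h level (adjusted p = 4.47e-18 with edgeR). PFKP (chromosome 10, 3066333 to 3137718) fell from 211, 201, and 182 CPM to 123, 122, and 123, a log2 fold change of -0.69 (SE 0.0465). The fall of the committing step therefore included both of its listed isoforms.

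The upper steps differed among themselves. HK1 (chromosome 10, 69269984 to 69401884), the hexokinase found in most tissues, fell from 415, 402, and 386 CPM to 254, 258, and 268, a log2 fold change of -0.63 (SE 0.0400). HK2 (chromosome 2, 74834127 to 74893359), the inducible hexokinase of many tumors, fell from 160.4, 164, and 173 CPM to 141, 139.7, and 137. This was the smallest fall of the 10, at -0.25 (SE 0.0428, adjusted p = 3.16e-06 with edgeR). GPI fell from 1043, 1036, and 962 CPM to 634, 639.7, and 673, a log2 fold change of -0.64 (SE 0.0401). ALDOA (chromosome 16, 30064164 to 30070457) fell by less, from 1105, 1088, and 1049 CPM to 789.6, 786, and 819.7, at -0.44 (SE 0.0397).

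The abundant genes of the lower steps fell to between 0.645-fold and 0.722-fold. GAPDH (chromosome 12, 6534512 to 6538374), which oxidizes glyceraldehyde 3-phosphate and is a common reference gene, fell from 3545, 3467, and 3329 CPM to 2468, 2445, and 2558 (-0.47, SE 0.0380). ENO1 fell from 2361, 2366, and 2295 CPM to 1585, 1619, and 1615 (-0.54, SE 0.0344), and every 12 h library was below every 0 h library. LDHA fell from 1052, 1068, and 981 CPM to 646, 682, and 673 (-0.63, SE 0.0534, adjusted p = 1.21e-11 with edgeR). GAPDH, LDHA, ENO1, PGK1, and ALDOA have processed pseudogenes elsewhere in the genome, and ENO1 overlaps ENO1-AS1 on the other strand. The kit did not mark strand, so reads of ENO1 and ENO1-AS1 cannot be told apart, and how reads matching pseudogenes were assigned was not tested.

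**Figure D2:**
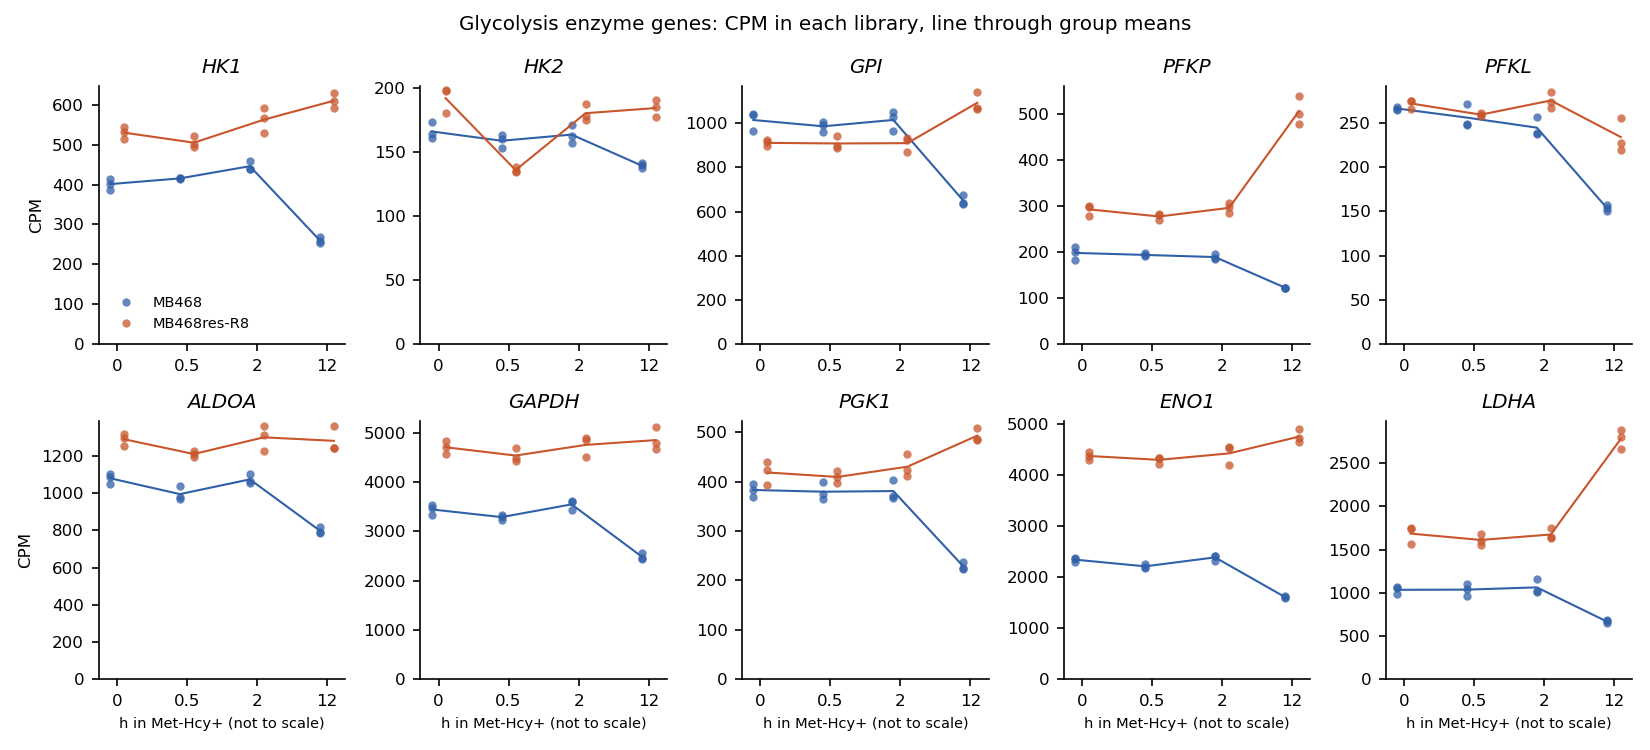
CPM (y axis, from 0, own scale in each panel) of each gene in each library against time in Met-Hcy+ medium (hours, x axis, not to scale), with a line through the group means and colour for the cell line. Blue points (MB468) drop at 12 h in every panel, while orange points (MB468res-R8) climb at 12 h for LDHA and PFKP and dip at 0.5 h for HK2.

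The same 12 h gave another picture in MB468res-R8 cells: 6 of the 10 genes rose (LDHA, PFKP, GPI, PGK1, HK1, and ENO1), PFKL fell, and HK2, ALDOA, and GAPDH did not pass the test. The 10 genes had a median log2 fold change of 0.16, against -0.02 over all tested genes. Of all tested genes, 61.3% were called, 30.2% higher and 31.1% lower. Among the 1370 genes at least as abundant as HK2, 45.6% were called higher, and their median was 0.06. With the spike-ins as library sizes, PFKP (0.81) and LDHA (0.75) were called and the others were not, although the median of all tested genes stayed at 0.00.

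LDHA and PFKP stood apart from the other 8 genes. LDHA rose from 1753, 1567, and 1734 CPM to 2660.0, 2879, and 2806, with a wide gap between the groups. Its log2 fold change was 0.72 (SE 0.0530, 1.65-fold, adjusted p = 1.12e-12 with edgeR). PFKP rose from 298, 300.4, and 279 CPM to 539, 478, and 499.9, and again no 12 h library was near the 0 h range. Its log2 fold change was 0.79 (SE 0.0449, 1.73-fold, adjusted p = 1.72e-18 with edgeR). PFKL, the other phosphofructokinase, moved in the opposite direction, from 275, 275, and 266 CPM to 256, 219, and 227 (-0.22, SE 0.0444, adjusted p = 5.31e-05 with edgeR). Hence the isoforms of this step moved apart in MB468res-R8 and fell together in MB468.

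The remaining rises were smaller. GPI rose from 922, 914, and 895 CPM to 1142, 1069, and 1064 (0.26, SE 0.0399, adjusted p = 3.74e-07 with edgeR), and PGK1 from 440.0, 393, and 423 to 485, 509, and 486 (0.24, SE 0.0447). HK1 rose from 531, 544, and 515 CPM to 628, 592, and 609.8 (0.20, SE 0.0393), and ENO1 from 4452, 4292, and 4371 to 4895, 4641, and 4718 (0.12, SE 0.0342). In none of these 4 genes did the groups overlap. GAPDH had 4837, 4569.6, and 4723 CPM at 0 h and 5113, 4786, and 4666 at 12 h (0.04, adjusted p = 0.326 with edgeR). ALDOA (-0.01, adjusted p = 0.845) and HK2 (-0.06, adjusted p = 0.232) also had overlapping groups. Without replicate 3 of MB468res-R8 at 0 h, HK2 was called lower (-0.10, adjusted p = 0.0494).

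Testing the 12 h response of one line against the other addresses whether these genes changed differently over 12 h in MB468 and in this clone. All 10 genes were called, each with a higher response in MB468res-R8, against 56.5% of all tested genes called and 26.2% called higher. Among the 1370 genes at least as abundant as HK2, 62.0% were called higher. The median difference was 0.75 for the 10 genes, 0.27 for the 1370 genes, and -0.05 for all tested genes. This comparison shares its 0 h and 12 h libraries with the responses above and is not separate evidence from them.

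PFKP had the largest difference, 1.48 (SE 0.0646, 2.79-fold, adjusted p = 7.92e-22 with edgeR), and LDHA the next, 1.36 (SE 0.0752, 2.56-fold, adjusted p = 2.99e-15). PGK1 (0.98), GPI (0.91), and HK1 (0.83) followed, each with a fall in MB468 and a rise in MB468res-R8. ENO1 (0.66), PFKL (0.58), GAPDH (0.51), and ALDOA (0.43) differed by less. HK2 had the smallest difference, 0.19 (SE 0.0604, adjusted p = 0.00820 with edgeR). With the spike-ins as library sizes all 10 genes were still called higher, at a median of 1.0 against 0.20 for all tested genes, and HK2 had an adjusted p of 0.0378.

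**Figure D3:**
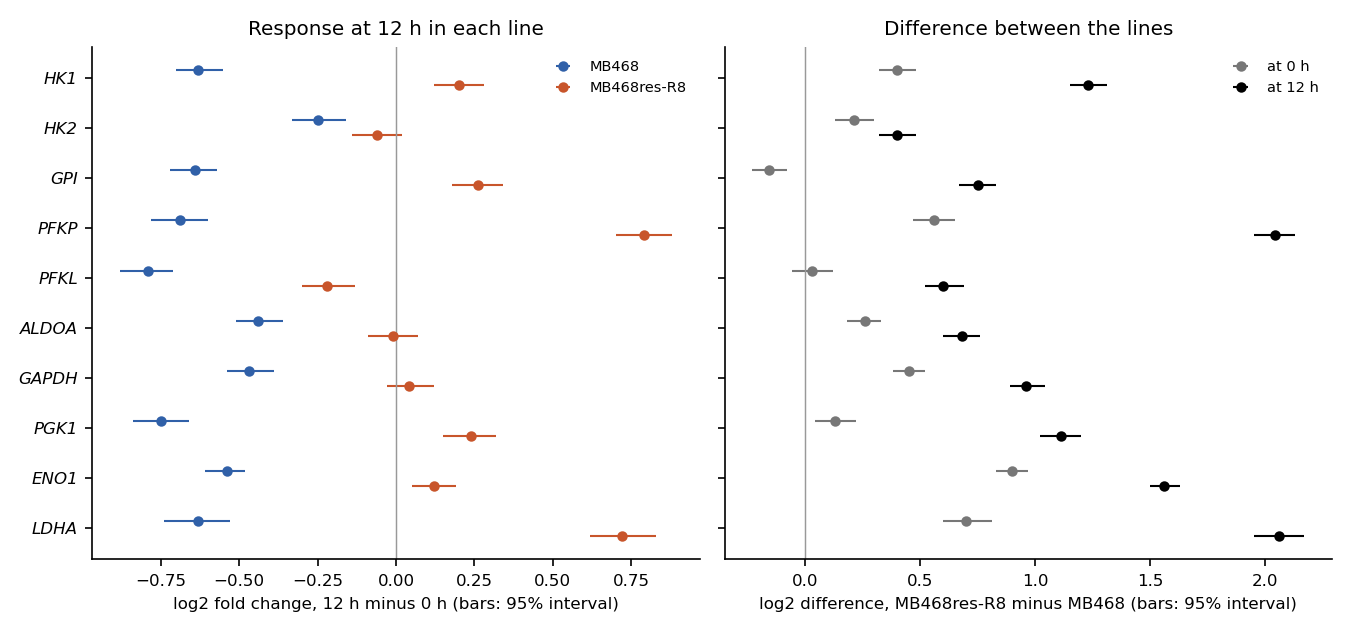
Log2 fold change from 0 to 12 h of each gene in each line (left) and log2 difference between MB468res-R8 and MB468 at 0 h and at 12 h (right), with a line at 0. Bars are approximate 95% intervals, from the SE and a normal quantile. On the left all 10 MB468 points lie below 0, from -0.79 to -0.25, and on the right every 12 h point lies to the right of its 0 h point.

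As a result, all 10 genes were higher in MB468res-R8 than in MB468 at 12 h. Their groups did not overlap, which was not counted for all tested genes. The differences ran from 0.40 for HK2 to 2.06 for LDHA, with a median of 1.04, while all tested genes had a median of -0.06. Of all tested genes, 73.1% were called at 12 h and 33.9% were called higher, and among the 1370 genes at least as abundant as HK2 65.2% were called higher, with a median of 0.29. LDHA reached 4.17-fold and PFKP 4.12-fold of their MB468 levels. GPI, which was lower in MB468res-R8 at 0 h (-0.16), was higher at 12 h (0.75, SE 0.0401, adjusted p = 5.59e-20 with edgeR). PFKL, which did not pass the test at 0 h, was higher by 0.60 at 12 h although it had fallen in both lines.

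Within the first 2 h few of the 10 genes moved. In MB468 at 0.5 h, ALDOA alone was called lower, from 1105, 1088, and 1049 CPM to 967, 979, and 1039, against 33.9% of all tested genes called. The change of -0.12 (adjusted p = 0.0172 with edgeR) was not called without replicate 1 of MB468 at 0 h (0.0661) or replicate 1 at 0.5 h (0.0514). In MB468 at 2 h, HK1 alone was called higher, from 415, 402, and 386 CPM to 459.7, 439, and 439, against 16.3% of all tested genes called. The change was 0.15 (adjusted p = 0.00530 with edgeR). Without replicate 2 at 2 h, the library high in the summed RNAs without a poly(A) tail, it was 0.16 (0.00912). It was not called without replicate 3 at 0 h (0.0577). With the spike-ins as library sizes, the median of all tested genes in MB468 at 2 h was -0.42. The 10 genes then had a median of -0.42 as well, 9 of them were called lower, and HK1 was at -0.27.

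HK2 was the exception in MB468res-R8 at 0.5 h. It went from 198, 197, and 180.2 CPM at 0 h to 135, 138, and 134 at 0.5 h, and back to 178, 175, and 187 at 2 h. The 0.5 h libraries lay below all other libraries of this line. The log2 fold change was -0.50 (SE 0.0434, 0.706-fold, adjusted p = 1.53e-12 with edgeR), and HK2 was the only one of the 10 genes called, against 33.7% of all tested genes. In MB468, HK2 was at 159.6, 153, and 163 CPM at 0.5 h, within or near its 0 h range (-0.06, adjusted p = 0.282). The line difference in the 0.5 h response was -0.44 for HK2 (SE 0.0614, adjusted p = 5.08e-06 with edgeR), and 2.90% of all tested genes were called in that comparison. With the spike-ins as library sizes the fall in MB468res-R8 was still called (-0.45, adjusted p = 0.00521), but the line difference was not (-0.17, 0.534).

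At 2 h in MB468res-R8, 0 of the 10 genes were called with edgeR or with DESeq2, and 2 (HK1 and HK2) had an unadjusted p under 0.05. Of all tested genes, 4.37% were called. The line difference at 2 h also had 0 of the 10 genes called by either tool, with 1 (PFKL) at an unadjusted p under 0.05 and 5.07% of all tested genes called. All log2 fold changes at 2 h in MB468res-R8 were between -0.09 and 0.08.

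Levels per length place the 10 genes in order of abundance, with CPM divided by the length of the canonical GENCODE transcript in kilobases. In MB468 at 0 h, GAPDH was at 2682 ± 85.0 CPM per kilobase (SD, n = 3), followed by ENO1 (1314 ± 22.2), ALDOA (659 ± 17.5), LDHA (461 ± 20.7), and GPI (246 ± 10.8). HK1, PFKL, PGK1, PFKP, and HK2 came after them. PGK1 (79.6 ± 2.71) and PFKP (75.4 ± 5.63) overlapped. In MB468res-R8 at 12 h, LDHA (1241 ± 49.7) had passed ALDOA (781 ± 41.3), with no overlap, and PFKP (193 ± 11.8) had passed HK1 (169 ± 5.05). At 0 h in MB468res-R8, ALDOA (787 ± 20.1) and LDHA (752 ± 45.7) overlapped. HK2 stayed last in all 8 groups. The transcripts in use may differ from the canonical ones, which would shift these levels between genes but not between groups of 1 gene.

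The make-up of single steps changed as well, on the same scale per length. PFKP made up 50.8 ± 0.589% of the phosphofructokinase RNA (PFKP, PFKL, and PFKM) in MB468res-R8 at 0 h and 67.4 ± 0.409% at 12 h, with no overlap. In MB468 it went from 41.5 ± 1.65% to 43.8 ± 0.564%. LDHA, whose product favors lactate formation, made up 63.5 ± 0.703% of LDHA and LDHB in MB468res-R8 at 0 h and 70.2 ± 0.341% at 12 h, and 49.2 ± 0.523% and 54.7 ± 0.950% in MB468. The share of LDHA was thus larger at 12 h in both lines, although LDHA itself rose in MB468res-R8 and fell in MB468. HK2 made up 20.9 ± 1.23% of HK1 and HK2 in MB468 at 0 h and 25.6 ± 0.811% at 12 h, and in MB468res-R8 it went from 18.8 ± 0.478% to 14.7 ± 0.500% at 0.5 h and 16.2 ± 0.752% at 12 h. These shares (mean ± SD, n = 3) are descriptions, since 3 libraries against 3 cannot give an exact permutation p under 0.1.

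**Figure D4:**
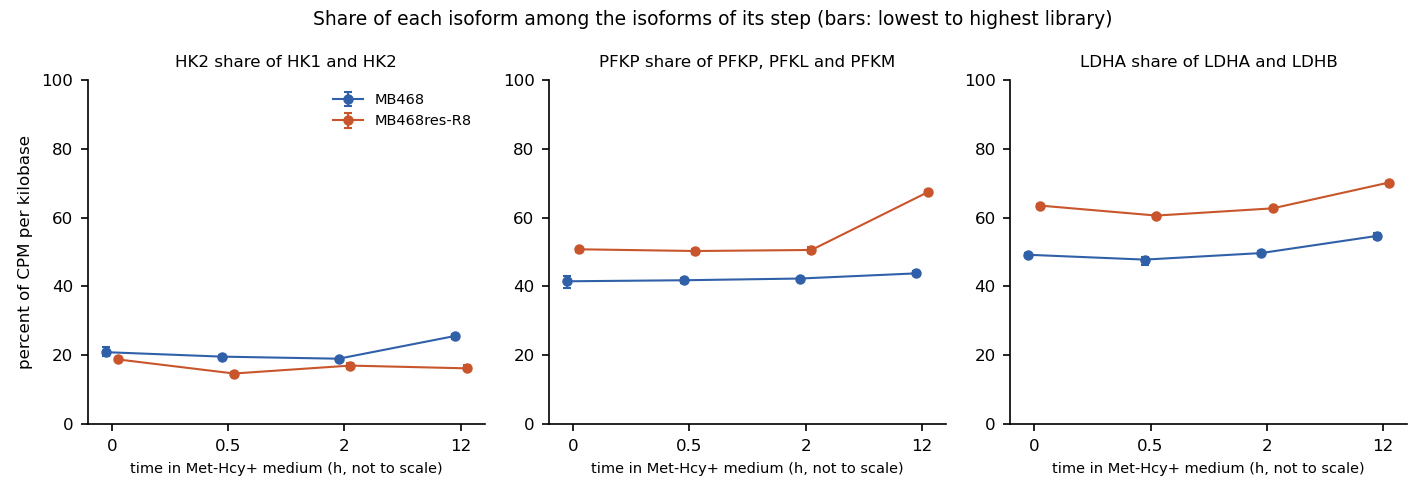
Share (percent of the summed CPM per kilobase, y axis) of HK2, PFKP, and LDHA among the isoforms named above each panel, against time in Met-Hcy+ medium (hours, x axis, not to scale), as the group mean with bars from the lowest to the highest of 3 libraries. PFKP in MB468res-R8 climbs from 50.8% to 67.4% at 12 h, while MB468 stays between 41.5% and 43.8%.

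The genes of the same route that are not among the 10 followed them in part. Of 23 further isoforms and steps, 17 were tested, and at 12 h 8 were lower and 3 higher in MB468 and 4 lower and 7 higher in MB468res-R8, with medians of -0.55 and 0.12. Over all tested genes, the medians were 0.01 and -0.02, with 36.1% and 30.2% called higher and 34.7% and 31.1% called lower, and the lists that follow can be read against these. PKM, which makes pyruvate, was at 1557 CPM in MB468 and 1694 in MB468res-R8 at 0 h and at 1041 and 1949 at 12 h. It fell in MB468 (-0.58) and rose in MB468res-R8 (0.20), a line difference of 0.78 (adjusted p = 3.85e-15 with edgeR). The triose isomerase TPI1 (-0.46 and 0.14) and the mutase PGAM1 (-0.43 and 0.23) did the same. LDHB fell in MB468 (-0.96) and rose in MB468res-R8 (0.28), and PFKM, the muscle isoform, fell in both (-1.05 and -0.20). With the 10 genes, this covers the whole route from glucose to lactate.

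HKDC1, a further hexokinase, went against the list with rises in both lines (2.77 in MB468 and 0.74 in MB468res-R8), from 1.14 to 7.49 CPM and from 5.70 to 9.53. ADPGK, an ADP-dependent glucokinase chosen after its values were seen, also rose in both (0.65 and 0.41). ALDOC, at 2.95 CPM in MB468 at 0 h, fell there (-1.57) and did not pass the test in MB468res-R8 (-0.03, adjusted p = 0.952). ENO2 had a log2 fold change of -0.21 in MB468 (adjusted p = 0.234) and rose in MB468res-R8 (0.56). ENO3 was at 0.41 in MB468 (adjusted p = 0.0787) and fell in MB468res-R8 (-0.57). LDHAL6B fell in MB468res-R8 (-1.58, adjusted p = 0.0258) from 0.343 CPM, and HK3 (0.430 CPM in MB468 at 0 h) and ENO4 (0.542 CPM) passed the test in neither line at 12 h. Per length, ALDOA made up at least 99.7% of ALDOA and ALDOC in every library.

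Transport did not follow the enzymes in MB468res-R8. Of 11 tested genes for glucose and lactate transport, 9 fell and 1 rose there at 12 h, with a median of -1.36, and in MB468 5 fell and 3 rose (median -0.42). The genes with the largest changes were of low abundance: SLC2A10 (-1.99 in MB468 and -2.03 in MB468res-R8), SLC2A4 (-1.98 and -1.90), and SLC16A8 (-0.44 and -1.84) were at most 7.09 CPM in the 0 h group means. SLC2A1 and SLC16A1, chosen after their values were seen, are the main glucose transporter GLUT1 and the lactate transporter MCT1. SLC2A1 rose in MB468 from 189 to 222 CPM (0.24) and fell in MB468res-R8 from 363 to 275 (-0.40), a line difference of -0.64 (adjusted p = 5.90e-11 with edgeR) opposite in sign to that of the 10 genes. SLC16A1 rose in both lines, from 96.7 to 119.6 and from 128 to 185 CPM. At 0 h, 5 of the 11 were higher and 1 lower in MB468res-R8, where 26.4% of all tested genes were higher and 27.1% lower.

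Mitochondrial entry of pyruvate, with the carrier, the pyruvate dehydrogenase complex, and pyruvate carboxylase, behaved as the enzymes did in MB468, where 8 of 8 genes fell (median -0.55). In MB468res-R8 4 fell and 2 rose (median -0.06). The line difference at 12 h was higher for 8 of 8, against 26.2% of all tested genes called higher. PC, the carboxylase, fell in both lines (-1.32 and -1.13), and the carrier genes MPC1 (-0.82 and -0.20) and MPC2 (-0.80 and -0.20) fell more in MB468. Among 11 tested regulators of flux, 5 fell and 3 rose in MB468, and 8 fell and 2 rose in MB468res-R8. Of the pyruvate dehydrogenase kinases, which switch the complex off, PDK3 fell in MB468 from 169.9 to 60.1 CPM (-1.50) and less in MB468res-R8 (-0.35). PDK4 fell in MB468res-R8 from 3.62 to 0.378 CPM (-3.27) and did not pass the test in MB468 (-0.08, adjusted p = 0.876). The phosphatase PDP1, which switches the complex on, rose in MB468 (0.61) and fell in MB468res-R8 (-0.85).

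The pathways that branch from glycolysis fell in MB468 in most of their genes. Of the pentose phosphate genes 6 of 8 fell and 2 rose in MB468 and 5 fell and 2 rose in MB468res-R8, with PGLS (-0.79 and -0.38) and H6PD (-0.70 and -0.54) lower in both. TKT fell in MB468 (-0.66) and did not pass the test in MB468res-R8 (-0.11, adjusted p = 0.0773). Of 9 glycogen and hexose phosphate genes 8 fell in MB468, with PGM1 (phosphoglucomutase, -1.31), PYGL (-0.80), and the scarce PYGM (-1.31). In MB468res-R8 2 fell, among them PGM1 (-0.31), and 3 rose. Of the gluconeogenesis genes, PCK2 (-1.28 and -1.36) and G6PC3 (-0.44 and -0.27) were the 2 tested, and both fell in both lines.

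**Figure D5:**
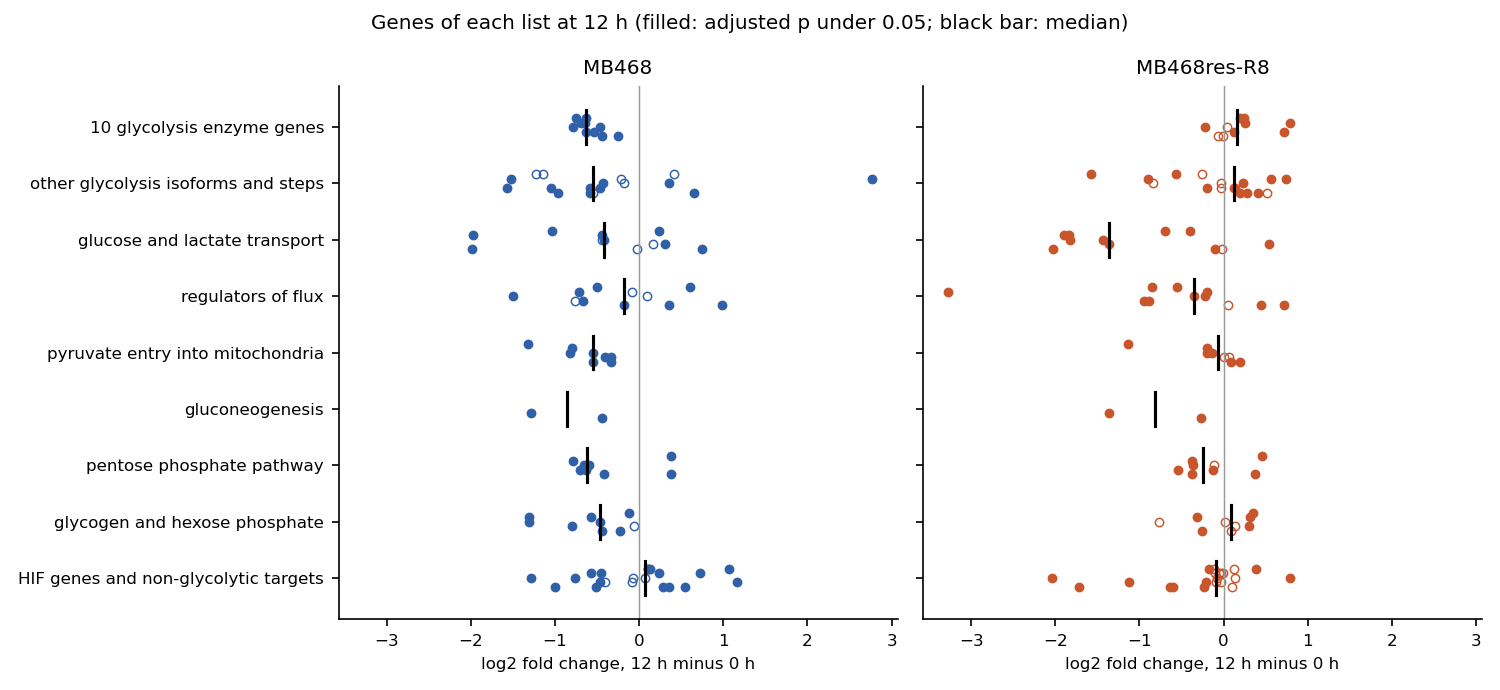
Log2 fold change from 0 to 12 h (x axis) of each tested gene of each list (y axis) in MB468 and MB468res-R8, filled where the adjusted p was under 0.05, with a black bar at the list's median. The 10 enzyme genes lie tightly below 0 in MB468 (median -0.63), and in MB468res-R8 the transport genes lie left of 0 (median -1.36) while the enzyme genes do not (median 0.16).

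HIF genes and HIF targets outside glycolysis were called in both directions. Of 21 tested, 8 rose and 7 fell in MB468 at 12 h (median 0.07), and 2 rose and 8 fell in MB468res-R8 (median -0.09). These are 38.1% higher and 33.3% lower in MB468, near the 36.1% and 34.7% of all tested genes, and 9.52% higher and 38.1% lower in MB468res-R8, against 30.2% and 31.1%. VEGFA, an angiogenic factor, rose in MB468 from 162 to 340.3 CPM (1.07) and fell in MB468res-R8 from 189 to 168 (-0.17), so its line difference was -1.24 (adjusted p = 1.85e-19 with edgeR). ADM rose in MB468 (0.28) and fell in MB468res-R8 (-1.72), and ANKRD37, with 0 h group means of 0.982 and 2.88 CPM, fell in both (-1.29 and -2.04). At 0 h, 11 of the 21 were higher in MB468res-R8 and 6 lower, against 26.4% and 27.1% of all tested genes. VEGFA and ADM thus had line differences opposite in sign to those of the 10 genes, but the list as a whole was split. In the 12 h line difference 7 of the 21 were called higher and 7 lower (33.3% each). Of all tested genes, 26.2% were called higher and 30.3% lower in that comparison.

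Across the 24 libraries the 10 genes varied together to different degrees, given here as correlations of log2 CPM that share the contrast between lines and the 12 h groups. HK1 was closest to the mean of the other 9 (r = 0.984) and HK2 least close (0.600), with GPI (0.682) and PFKL (0.692) also apart. LDHA and PFKP were each other's closest gene (r = 0.986), and GAPDH was closest to ALDOA (0.982) and to ENO1 (0.982). Of 6381 genes whose mean log2 CPM reached 5, those most like the mean of the 10 were PARP1 (0.990), VDAC1 (0.986), MAP3K6 (0.984), TPM3 (0.982), and GALNS (0.980). VDAC1 encodes a channel of the outer mitochondrial membrane and PARP1 a DNA repair enzyme.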

How the data were processed

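Poly(A) RNA was read from a single end over 100 bp. The authors mapped these reads to GRCh38/hg38 with the spike-ins added and counted reads for each gene, and the deposited table holds these raw counts, with no normalization, for 26645 gene entries and 92 spike-ins in 24 libraries. HISAT2 2.1.0, featureCounts in Subread 1.5.3, DESeq 1.22.2, and DESeq2 are named in the submitters' processing notes. A table of the authors' normalized counts and a table of their own test results were not used here. Groups came from the sample labels.

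The analysis used edgeR 4.0.16 in R 4.3.3 (filterByExpr with a minimum count of 10 and a minimum total of 15, TMM factors, and a robust quasi-likelihood fit with a mean for each of 8 groups) and adjusted by the Benjamini-Hochberg method over 14741 genes. The 11 comparisons were contrasts of this fit. Each SE is the absolute log2 fold change divided by the square root of the F statistic, so SEs and the intervals drawn from them are approximate. CPM are counts per 1000000 counts of the TMM-scaled library size, and log2 CPM for correlations used a prior count of 2. The code was tested on simulated data. The alternatives tried were library sizes from spike-in totals, size factors and the Wald test of DESeq2 1.42.0, other filters, fits to the compared groups only, a stricter adjusted p of 0.01, a block for the replicate number, and leaving out each library.

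The 10 genes were given by symbol, and the other lists were written by hand. Both were chosen with earlier results of these data known. All 10 genes are described. From each other list up to 3 genes are named, the called ones with the largest change in the 12 h comparisons, besides the other isoforms and steps of the route. SLC2A1, SLC16A1, ADPGK, PDK1, and PDK2 were added after their values were seen. Positions and lengths come from GENCODE and promoters from RefSeq, both on GRCh38.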

Additional observations from a re-analysis of the deposited data

Results flagged for a closer look

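The contrast between the responses in the edgeR fit called the 12 h response different between MB468res-R8 and MB468 for all 10 enzyme genes. The differences (MB468res-R8 minus MB468, log2 scale) were 0.83 for HK1, 0.19 for HK2, 0.91 for GPI, 1.48 for PFKP, 0.58 for PFKL, 0.43 for ALDOA, 0.51 for GAPDH, 0.98 for PGK1, 0.66 for ENO1, and 1.36 for LDHA. Of all tested genes, 56.5% were called in the 12 h contrast, 26.2% higher and 30.3% lower. Among the 1370 genes at least as abundant as HK2, 81.8% were called and 62.0% were called higher. At 0.5 h the same test called HK2 alone of the 10, at -0.44, against 2.90% of all tested genes. With the spike-ins as library sizes, 0 of the 10 were called at 0.5 h.

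Among the other named genes of the route, the 12 h difference was higher in MB468res-R8 for PFKM (0.85), ALDOC (1.55), TPI1 (0.60), PGAM1 (0.66), ENO2 (0.77), PKM (0.78), and LDHB (1.24), and lower for HKDC1 (-2.02), ENO3 (-0.98), and ADPGK (-0.24). Of the named genes in the other lists, PDK1 and PDK2 aside, it was higher for SLC16A1 (0.23), PDK3 (1.15), MPC1 (0.62), MPC2 (0.60), PC (0.19), PGLS (0.41), TKT (0.55), PYGL (0.95), and PGM1 (1.0). It was lower for SLC2A1 (-0.64), SLC16A8 (-1.40), PDK4 (-3.19), PDP1 (-1.46), VEGFA (-1.24), and ADM (-2.0).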

How the results depend on the processing

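The 10 genes kept their calls in MB468 at 12 h (all lower), in the 12 h line difference, and between the lines at 12 h (all higher) under every alternative run, with 10 of 10 called each time. Leaving out 1 library gave 8 to 9 genes called between the lines at 0 h, 7 to 8 in MB468res-R8 at 12 h, 0 to 2 in MB468 at 0.5 h and at 2 h, and 1 to 2 in MB468res-R8 at 0.5 h. The calls over all tested genes then ranged from 348 to 667 in MB468res-R8 at 2 h, where 348 came without replicate 2 at 2 h and 410 without replicate 3 at 0 h. The replicate numbers did not pair the libraries (same-numbered libraries correlated at a mean of -0.145 to 0.277 by comparison, and in no comparison was every pair above 0.1), and the fit with the replicate number as a block called the same number of the 10 genes as the fit without it in all 11 comparisons (9 at 0 h and 7 in MB468res-R8 at 12 h, for example).

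Spike-in totals as library sizes changed most. They left 3 of the 10 genes called at 0 h, 2 in MB468res-R8 at 12 h, 9 in MB468 at 2 h, and 0 in the 0.5 h line difference. At 0 h HK2 (-0.10), ALDOA (-0.05), and PGK1 (-0.18) reversed, and PFKL, called under neither scaling, went from 0.03 to -0.28. In MB468 at 2 h HK1 (-0.27), GPI (-0.42), GAPDH (-0.38), ENO1 (-0.39), and LDHA (-0.39) reversed, where the median of all tested genes was -0.42. Calls over all tested genes became 3287 in MB468 at 0.5 h (5000 before), 9511 at 2 h (2410), 2023 in MB468res-R8 at 0.5 h (4967), 180 at 2 h (644), 5887 at 12 h (9036), and 101 in the 0.5 h line difference (428). The share of called genes that were higher went from 49.4% to 15% at 0 h, from 51.0% to 30.0% in MB468 at 12 h, and from 46.3% to 69.9% in the 12 h line difference. The summed level of the 10 genes became 12424, 10252, 9434, and 7267 CPM in MB468 at 0, 0.5, 2, and 12 h (10330.2, 9919.6, 10509, and 7115 before) and 14240.4 and 13884 in MB468res-R8 at 0 and 2 h (14672 and 14807). Leaving out 1 library gave sums of 7049 to 7166 CPM in MB468 and 16549.8 to 16934 in MB468res-R8 at 12 h. The cause was not tested.

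The single early calls moved most easily. With DESeq2's size factors, with DESeq2's Wald test, and in fits to the compared groups only, 2 genes were called instead of 1 in MB468 at 0.5 h, in MB468 at 2 h, and in MB468res-R8 at 0.5 h. Without the low-count filter 2 were called in MB468 at 2 h, and with at least 10 counts in every library 2 in both lines at 0.5 h. At an adjusted p under 0.01, 0 were called in MB468 at 0.5 h, and calls over all tested genes were 1580 in MB468 at 2 h, 392 in MB468res-R8 at 2 h, 232 in the 0.5 h line difference, and 431 in the 2 h one (747 before). The scarcest of the 10 genes had 1898 counts in its lowest library, so each of the filters tried kept all 10. The choice of filter still moved single early calls, as given above. Depth limits mainly the scarce genes of the other lists.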
